A study of Danio rerio with 6 samples.

Results

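Skeletal muscle genes of the sarcomere and of calcium handling were examined in tlr2 mutant and wild type zebrafish larvae. The set holds 47 gene symbols, taken by name from the deposited table of genes, whose proteins form the thick filament, the thin filament, the giant ruler proteins, the Z disc or the calcium handling apparatus of the muscle fibre. These symbols had 61 of the 30258 entries of that table, because 13 symbols have more than 1 entry. Transcripts could be joined to 53 of the 61 entries, and 51 of them were among the 16776 genes that passed the filter on low counts and were tested. The deposited mean was 0 for 6 further entries, of actn3a, ldb3a, pvalb3, smyhc1, smyhc2 and tnnc2, each of which has another entry that was tested. Reads in only 1 library were found for 2 entries, of casq1a and smyhc3, and 2 entries, of pvalb2 and smyhc3, were joined but lay under the filter. The slow myosin heavy chain gene smyhc3 was therefore the only symbol without a tested entry.

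RNA came from whole larvae at 5 days post-fertilization (dpf), with 3 libraries of homozygous tlr2 mutant larvae (tlr2-/-, allele sa19423 from chemical mutagenesis, outcrossed to the ABTL strain) and 3 libraries of homozygous wild type larvae (tlr2+/+). The larvae were not infected or treated, and each genotype came from its own parents, bred as single crosses of 2-year-old fish. Polyadenylated RNA was read in lengths of 150 nt from a strand-specific library. Differences between the parents of the genotypes cannot be told apart from the mutation, every tissue of the mutant carries it, and the 3 libraries of a genotype are the unit of replication.

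Depth was 17854737 to 24088390 reads in the mutant libraries and 19828367 to 33403126 reads in the wild type libraries. Both entries of tlr2 have a deposited mean of 0, so its expression cannot check the genotype labels. At least 10 reads fell on 15542 to 17133 genes in the mutant libraries, on 19202 genes in wild type replicate 3 and on only 12950 and 11909 genes in wild type replicates 1 and 2. These last libraries had the fewest genes, but wild type replicate 3 stands apart as well, on the high side. Reads fell on 28402 transcripts in it, against 15599 to 24431 in the other libraries. Results are also given against wild type replicate 3 alone, a choice made after the data were seen, in which its spread is borrowed from the mutant libraries. It was not shown to be the more typical control. Libraries of a genotype varied widely (edgeR's biological coefficient of variation was 1.05). Levels are given as TPM (transcript abundance scaled for length and depth), and genotypes were tested on CPM (estimated counts scaled for depth with TMM factors). The scale matters here, since the TMM factor of wild type replicate 3 was 1.59 and those of the other libraries lay between 0.789 and 0.983. Summed over the muscle set, wild type replicate 3 had the lowest level, 85183 CPM. Wild type replicates 1 and 2 had 169194 and 256215 CPM, and mutant replicates 1 to 3 had 167632, 244281 and 174791 CPM. Comparisons against wild type replicate 3 alone therefore use the library with the lowest summed muscle CPM. All 10 symbols of a skeletal muscle marker list, most of them also members of the set, had reads, and the list summed to 68255 to 83544 TPM in mutant larvae and 61939 to 100946 TPM in wild type larvae. The cardiac list summed to 6.78 to 20.7 TPM in mutant larvae and 16.6 to 32.4 TPM in wild type larvae, with no joined entry of myh6 and nppb. Summed skin markers had 3931 to 4445 TPM in mutant larvae and 3568 to 13888 TPM in wild type larvae, neuron markers had 351 to 527 TPM in mutant larvae and 436 to 1096 TPM in wild type larvae, and the part of other tissues in the muscle values was not tested. In RNA of whole larvae, fewer muscle cells and less RNA per muscle cell cannot be told apart.

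A sarcomere is the repeating contractile unit of striated muscle, in which myosin thick filaments slide along actin thin filaments that are anchored at the Z disc. Contraction starts when ryanodine receptors release calcium from the sarcoplasmic reticulum and calcium binds troponin, which moves tropomyosin off the myosin sites of actin, and it ends when the SERCA pump returns calcium to the store. In zebrafish larvae, fast fibres form most of the trunk muscle and slow fibres a layer at its surface, and each type uses its own myosins, troponins and tropomyosins.

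Some muscle members were among the most abundant transcripts of the larva, and no member differed between the genotypes at the adjusted threshold. Of 162 genes with a mean of at least 1000 TPM, 13 were member entries. Together all members held 13.2%, 16.1% and 12.3% of all TPM in mutant replicates 1, 2 and 3, and 15.9%, 21.99% and 14.9% in wild type replicates 1, 2 and 3. The means were 13.9% ± 1.95 in mutant larvae and 17.6% ± 3.86 in wild type larvae (SD, n = 3 each), and the groups overlapped. The difference of -3.73 percentage points shrank to -1.52 without wild type replicate 2 and to -1.01 against wild type replicate 3 alone. As a share of estimated counts, which are not scaled for length, members held 16.2%, 19.3% and 16.1% in mutant larvae and 16.6%, 23.3% and 13.5% in wild type larvae. The most abundant members spanned actin, tropomyosin, myosin light chain and parvalbumin genes, whereas the least abundant tested entries lay near 1 TPM, as the plot of TPM by library shows.

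**Figure D1:**
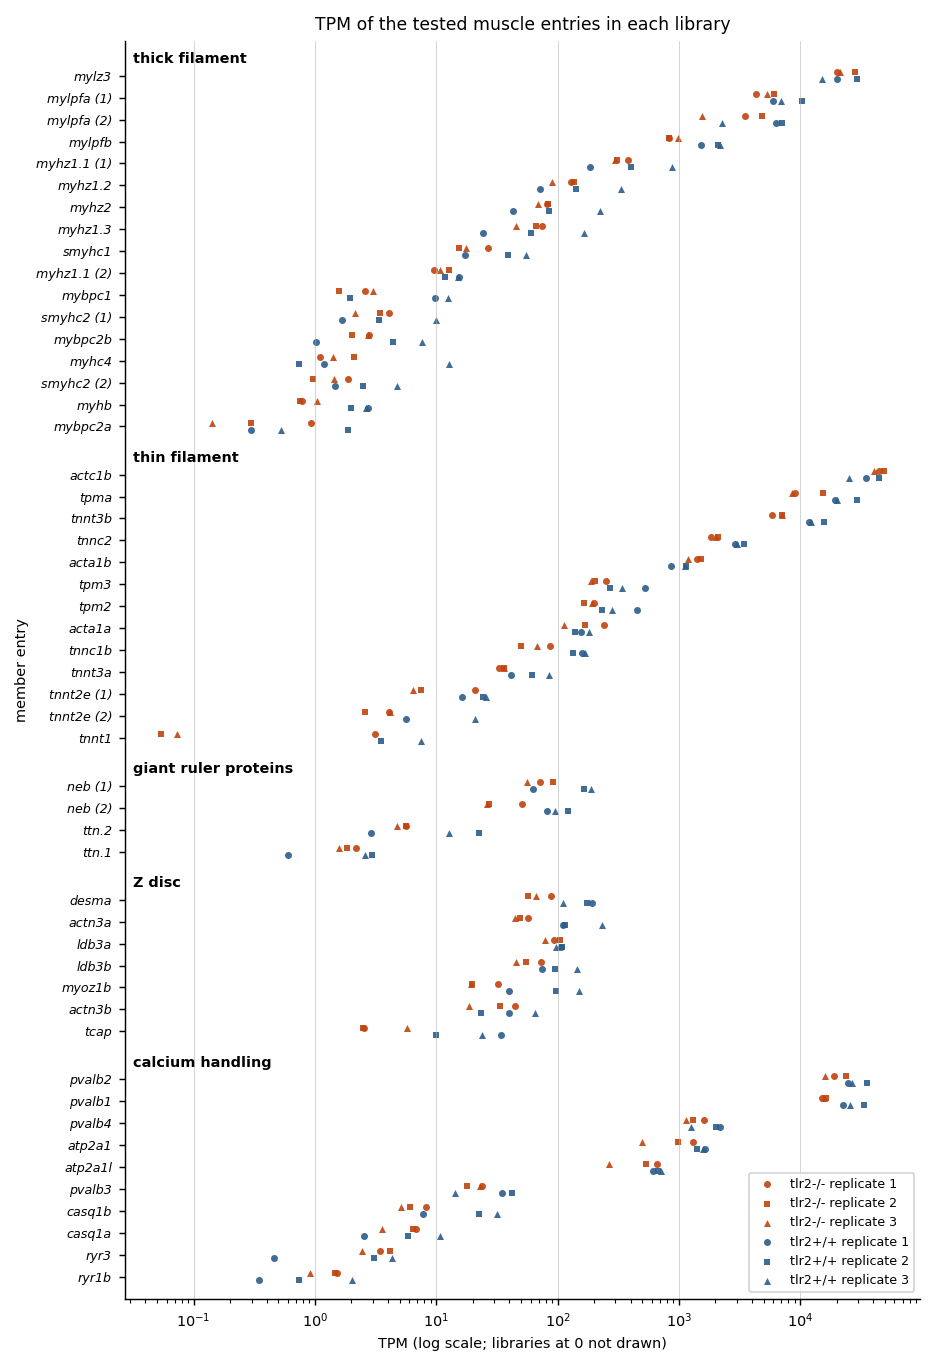
TPM on a log scale of the 51 tested muscle entries, grouped by role and ordered by mean level, with a point for each of 3 tlr2-/- and 3 tlr2+/+ libraries; entries that share a symbol are numbered by level. Levels ran from under 1 TPM to 49381 TPM (actc1b in mutant replicate 2). The points of mutant libraries lay below those of wild type libraries without overlap for 18 entries (35.3%, against 12.9% of all genes).

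By edgeR's quasi-likelihood test with Benjamini-Hochberg adjustment over all genes, 0 of the 51 entries passed an adjusted p under 0.05 (0.00596% of all genes did), and each had an adjusted p of 1.00. At an unadjusted p under 0.05, 4 entries were lower in mutant larvae (tcap, myoz1b, actn3a and tnnc1b), which is 7.84% of entries where 1.99% of all genes were lower, and 0 were higher where 1.73% of all genes were. Of these, tcap, myoz1b and actn3a are in the study's table of changed genes. The study chose that table by an s-value, the probability of a wrong sign, which is another criterion than the adjusted p used here. It was chosen on these same libraries. The excess of lower entries over all genes is therefore not independent evidence. DESeq2's Wald test called 0 members, where it called 0.189% of all genes. In limma-trend on log2(TPM + 1), 1 member was called, tnnt3b, where 0.0417% of all genes were. Without wild type replicate 3, 11 entries were lower (21.6%, against 3.45% of all genes) and 1 was higher (1.96%, against 13.3% of all genes). Without mutant replicate 3, 2 entries were lower (3.92%, against 1.44%) and 1 was higher (1.96%, against 1.21%). Against wild type replicate 3 alone, the direction of the count turned, with 5 entries lower (9.80%, against 2.65% of all genes) and 11 higher (21.6%, against 8.39%). In that comparison 6 entries passed the adjusted threshold (11.8%, against 3.73% of all genes), of which 4 were higher and 2 lower in mutant larvae.

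On the CPM scale, every mutant library lay below every wild type library for 6 entries (11.8%, against 6.20% of all genes) and above for 1 entry (1.96%, against 6.87%). Those 6 were tcap, myoz1b, actn3a, tnnc1b, mylpfb and myhb, and the 1 above was the actin gene acta1b. On the TPM scale the counts were 18 entries below (35.3%, against 12.9% of all genes) and 1 above (1.96%, against 2.53%). On both scales the entries below include tcap, myoz1b and actn3a, which the study's table chose on these same libraries. The log2 fold change, mutant over wild type, was below 0 for 32 entries and above 0 for 19. Its median was -0.27 over the 51 entries and 0.02 over all genes on the CPM scale. On the log2(TPM + 1) scale the median over all genes was itself -0.22 and that over the entries was -0.62, so that members lay 0.40 below all genes in TPM and 0.30 below in CPM. Without wild type replicate 2 the median of the entries turned to 0.065, and against wild type replicate 3 alone it was 0.39.

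**Figure D2:**
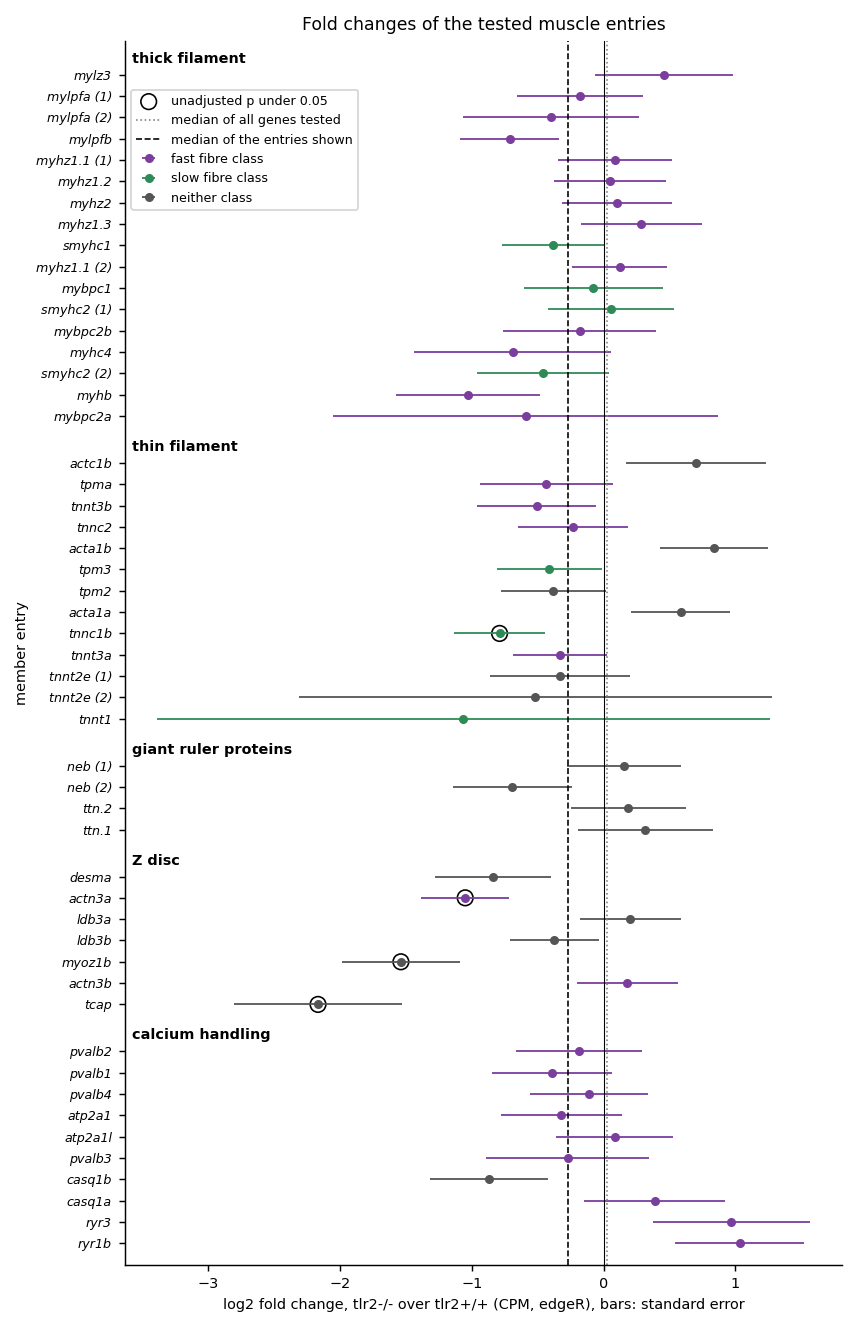
Log2 fold change in CPM (tlr2-/- over tlr2+/+) of the 51 tested muscle entries with its standard error from edgeR, grouped by role and coloured by fibre class; the dotted line is the median of all genes tested (0.02), the dashed line that of the entries shown (-0.27), and rings mark an unadjusted p under 0.05. The 4 ringed entries are tcap, myoz1b, actn3a and tnnc1b, all below 0, and the 3 actin genes lie above 0.

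The Z disc, where thin filaments of neighbouring sarcomeres are cross-linked, held 3 of the 4 entries with an unadjusted p under 0.05. Summed over its tested entries, it had 1010, 1036 and 743 CPM in mutant replicates 1 to 3 and 1428, 1547 and 1158 CPM in wild type replicates 1 to 3, without overlap. As a share of all TPM the Z disc genes made 0.0330% ± 0.00559 in mutant larvae and 0.0684% ± 0.0125 in wild type larvae (SD, n = 3 each). The median log2 fold change in CPM of its 7 entries was -0.84, with 5 entries below 0. The genes tcap, myoz1b and actn3a are also in the study's table of changed genes, which was chosen on these same libraries, so their direction here is not independent evidence. The sums, the share and the median of the Z disc include these genes. Its other tested entries, desma, ldb3a, ldb3b and actn3b, each overlapped between the genotypes in CPM.

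Telethonin, the product of tcap (ENSDARG00000007344), caps the end of titin at the Z disc. Its level was 2.71, 3.43 and 6.71 CPM in mutant replicates 1, 2 and 3, and 32.8, 11.1 and 13.8 CPM in wild type replicates 1, 2 and 3. Every mutant library was below every wild type library, and wild type replicate 1 was far above the other wild type libraries. The log2 fold change in CPM was -2.17 (standard error 0.64, 4.49-fold lower, edgeR unadjusted p = 0.00499), and it was -1.44 without wild type replicate 1 and -1.52 against wild type replicate 3 alone.

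Myozenin 1, encoded by myoz1b (ENSDARG00000071445), binds alpha-actinin and the phosphatase calcineurin at the Z disc. Mutant replicates 1, 2 and 3 had 32.6, 27.9 and 23.2 CPM of myoz1b, and wild type replicates 1, 2 and 3 had 34.3, 121 and 87.9 CPM. The groups did not overlap, but wild type replicate 1 lay just above the highest mutant library. Mutant over wild type, the log2 fold change in CPM was -1.54 (standard error 0.45, edgeR unadjusted p = 0.00446). Against wild type replicate 3 alone, myoz1b passed with a log2 fold change of -1.49 and an edgeR adjusted p of 0.0102, where its adjusted p ranged from 0.0102 to 1.00 over all alternatives.

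Alpha-actinin 3, the cross-linker of thin filaments in fast fibres, has 2 genes among the members. In mutant replicates 1, 2 and 3, actn3a (ENSDARG00000013755) had 233, 250 and 201 CPM, against 426, 495 and 498 CPM in wild type replicates 1, 2 and 3. These groups were tight and well apart in CPM, and the log2 fold change in CPM was -1.05 (standard error 0.33, edgeR unadjusted p = 0.00781), with values between -1.12 and -0.97 when any library was left out. In TPM the groups did not overlap either, but the wild type libraries were spread. Mutant replicates 1 to 3 had 56.8, 49.1 and 44.2 TPM, and wild type replicates 1 to 3 had 110.9, 115.5 and 234.4 TPM. The other gene, actn3b, overlapped between the genotypes and had a log2 fold change in CPM of 0.18 (standard error 0.38). Within each library, actn3a over actn3b in TPM was 1.27, 1.46 and 2.36 in mutant larvae, and 2.76, 4.90 and 3.61 in wild type larvae. As actn3a was chosen by the study on these same libraries, this ratio is not independent evidence. Ratios without overlap were common, at 36.1% of pairs among genes with a mean of at least 1000 TPM, a level above that of both genes.

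The muscle desmin gene desma (ENSDARG00000058656) encodes the intermediate filament that ties Z discs of neighbouring myofibrils together. It had 204, 167 and 174 CPM in mutant replicates 1, 2 and 3, and 421, 425 and 127 CPM in wild type replicates 1, 2 and 3. Wild type replicate 3 lay below all mutant libraries in CPM, although in TPM the groups did not overlap. For desma the log2 fold change in CPM was -0.84 (standard error 0.44, edgeR unadjusted p = 0.0808), and it turned to 0.68 against wild type replicate 3 alone. The LIM domain genes ldb3a and ldb3b, whose products hold alpha-actinin at the Z disc, overlapped between the genotypes in CPM and had log2 fold changes of 0.20 and -0.37.

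**Figure D3:**
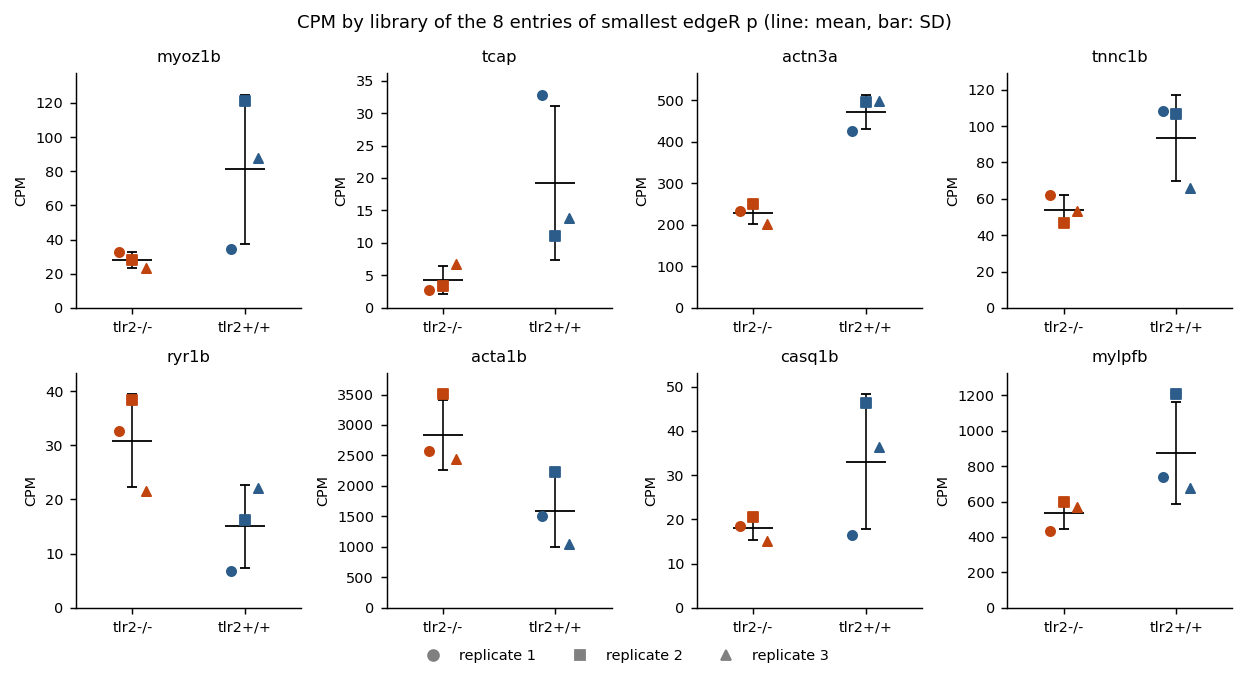
CPM by library, from 0, of the 8 muscle entries with the smallest edgeR p (tlr2-/- left, tlr2+/+ right, 3 replicates each by symbol shape, with the mean as a line and the SD as a bar). The groups do not overlap for myoz1b, tcap, actn3a, tnnc1b, acta1b and mylpfb; for ryr1b and casq1b they do.

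Among the 13 tested entries of the thin filament, actins stood above 0 and the regulatory proteins mostly below it. The median log2 fold change in CPM was -0.38, with 10 entries below 0 and 3 above. Those 3 were the skeletal alpha-actin genes actc1b, acta1a and acta1b, with log2 fold changes in CPM of 0.70, 0.58 and 0.84, none past the threshold. The actin genes are near-identical in their coding parts, so the split of reads between them is uncertain, and together they made 4.63%, 5.11% and 4.16% of all TPM in mutant replicates 1 to 3 and 3.61%, 4.62% and 2.68% in wild type replicates 1 to 3.

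The main actin gene of larval trunk muscle, actc1b (ENSDARG00000099197), was the most abundant member. Its level was 44671, 49381 and 40322 TPM in mutant replicates 1, 2 and 3, and 35104, 44932 and 25501 TPM in wild type replicates 1, 2 and 3. The groups overlapped, and the lowest library was wild type replicate 3. Its log2 fold change in CPM was 0.70 (standard error 0.53, edgeR unadjusted p = 0.211). It was 0.33 without wild type replicate 3 and 1.13 without wild type replicate 2, and against wild type replicate 3 alone it was 2.20 with an edgeR adjusted p of 0.00333 (range over all alternatives 0.00333 to 1.00).

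The related gene acta1b (ENSDARG00000055618) was the 1 member above in every mutant library on both scales. It had 2576, 3503 and 2449 CPM in mutant replicates 1, 2 and 3, and 1498, 2229 and 1041 CPM in wild type replicates 1, 2 and 3. The gap between the lowest mutant and the highest wild type library was small beside the spread within each genotype. For acta1b the log2 fold change in CPM was 0.84 (standard error 0.41, edgeR unadjusted p = 0.0614), and against wild type replicate 3 alone it was 1.62 with an edgeR adjusted p of 0.0163 (range over all alternatives 0.0163 to 1.00).

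Alpha-tropomyosin of fast muscle, tpma (ENSDARG00000033683), lies along actin and covers its myosin sites at rest. Mutant replicates 1, 2 and 3 had 9034, 15537 and 8564 TPM of tpma, against 19476, 29660 and 20017 TPM in wild type replicates 1, 2 and 3. In TPM every mutant library was below every wild type library, whereas in CPM the groups overlapped, with the lowest value, 10357 CPM, in wild type replicate 3. For tpma the log2 fold change in CPM was -0.43 (standard error 0.51, edgeR unadjusted p = 0.409), and it turned to 0.076 without wild type replicate 2 and to 0.98 against wild type replicate 3 alone. The slow alpha-tropomyosin tpm3 and the beta-tropomyosin tpm2 had log2 fold changes in CPM of -0.41 and -0.38.

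Troponin C binds the calcium that starts contraction, and tnnc1b (ENSDARG00000037539) is its slow fibre form. In mutant replicates 1, 2 and 3 it had 62.3, 46.5 and 53.4 CPM, against 108, 106 and 66.1 CPM in wild type replicates 1, 2 and 3. The groups did not overlap, and wild type replicate 3 lay closest to the mutant libraries. For tnnc1b the log2 fold change in CPM was -0.79 (standard error 0.34, edgeR unadjusted p = 0.0385), and it was -0.12 against wild type replicate 3 alone. The fast form tnnc2 had 1839, 2098 and 2040 TPM in mutant replicates 1 to 3, and 2910, 3439 and 3019 TPM in wild type replicates 1 to 3. In CPM the groups of tnnc2 overlapped, with a log2 fold change of -0.23 (standard error 0.42).

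Troponin T ties the troponin complex to tropomyosin, and its fast form tnnt3b (ENSDARG00000068457), named here after its values were seen, was the 1 member called by limma-trend. Its level was 5851, 7089 and 7123 TPM in mutant replicates 1, 2 and 3, and 11805, 15734 and 12252 TPM in wild type replicates 1, 2 and 3. The groups were well apart in TPM, and the log2(TPM + 1) fold change was -0.98 with a limma-trend adjusted p of 0.0361 (range over all alternatives 0.0361 to 1.00). In CPM they overlapped, since wild type replicate 3 had 6127 CPM, and the log2 fold change in CPM was -0.51 (standard error 0.45, edgeR unadjusted p = 0.281). Its copy tnnt3a had a log2 fold change in CPM of -0.33, and the troponin T entries tnnt1 (slow) and tnnt2e (of the cardiac family, 2 entries) lay at or under 25.7 TPM with log2 fold changes between -1.06 and -0.33 and, for tnnt1, a standard error of 2.32. tnnt1 had no read in wild type replicate 1 and the less abundant tnnt2e entry none in wild type replicate 2, where a count of 0 allows up to 3 counts, or 0.0998 and 0.166 CPM, for counting error only.

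The thick filament had 17 tested entries, with a median log2 fold change in CPM of -0.18, 10 entries below 0 and 7 above. None had an unadjusted p under 0.05. Myosin light chains, which sit on the neck of the myosin head, were its most abundant members by far, ahead of the myosin heavy chains that form the motor.

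The alkali light chain gene mylz3 (ENSDARG00000017441) had 20141, 28094 and 21164 TPM in mutant replicates 1, 2 and 3, and 20216, 29392 and 15112 TPM in wild type replicates 1, 2 and 3. The genotypes overlapped, with wild type replicate 3 lowest. Its log2 fold change in CPM was 0.46 (standard error 0.53, edgeR unadjusted p = 0.401). It was 0.089 without wild type replicate 3, 0.20 without mutant replicate 2 and 0.98 without wild type replicate 2, and against wild type replicate 3 alone it was 1.95 with an edgeR adjusted p of 0.00832 (range over all alternatives 0.00832 to 1.00).

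The regulatory light chain gene mylpfa, needed for fast muscle contraction, has 2 entries, and the smaller entry has an effective length of only 212 bases. The larger entry (ENSDARG00000053254) had 4357, 6045 and 5347 TPM in mutant replicates 1, 2 and 3, and 6026, 10374 and 6921 TPM in wild type replicates 1, 2 and 3. The genotypes overlapped by a narrow margin in TPM. Its log2 fold change in CPM was -0.18 (standard error 0.48, edgeR unadjusted p = 0.717), which turned to 0.36 without wild type replicate 2 and to 0.87 against wild type replicate 3 alone.

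A second regulatory light chain gene, mylpfb (ENSDARG00000002589), had 435, 595 and 567 CPM in mutant replicates 1, 2 and 3, and 740, 1206 and 676 CPM in wild type replicates 1, 2 and 3. The groups did not overlap on either scale. Its log2 fold change in CPM was -0.71 (standard error 0.37, edgeR unadjusted p = 0.0793), and it was -0.41 without wild type replicate 2 and -0.18 against wild type replicate 3 alone.

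The myosin heavy chain gene myhb (ENSDARG00000001993) was low, with 5.70, 7.17 and 8.66 CPM in mutant replicates 1, 2 and 3, and 18.4, 15.1 and 10.4 CPM in wild type replicates 1, 2 and 3. The groups did not overlap on either scale, and its log2 fold change in CPM was -1.03 (standard error 0.55, edgeR unadjusted p = 0.0827), which was -0.37 against wild type replicate 3 alone. The other fast heavy chains form a cluster of neighbouring, near-identical copies, in which myhz1.1, myhz1.2 and myhz1.3 follow each other and myhz2 adjoins myhc4 in the RefSeq annotation of GRCz12tu, so the split of reads between them is uncertain. Summed over all fast heavy chain genes, the level was 680, 615 and 517 TPM in mutant replicates 1 to 3, and 342, 703 and 1631 TPM in wild type replicates 1 to 3. The wild type libraries alone thus spanned more than the mutant ones, from the lowest to the highest sum of all 6. The log2 fold changes in CPM of the myhz1 and myhz2 entries lay between 0.05 and 0.29. Against wild type replicate 3 alone, myhc4, named here after its values were seen, passed with a log2 fold change of -1.74 (edgeR adjusted p = 0.0262, range over all alternatives 0.0262 to 1.00). Its level was 8.46, 20.1 and 12.1 CPM in mutant replicates 1 to 3, and 8.57, 5.98 and 51.1 CPM in wild type replicates 1 to 3, so that it was high in a single wild type library. The slow heavy chain genes smyhc1, smyhc2 and smyhc3, another cluster of copies, summed to 32.6, 19.7 and 21.2 TPM in mutant replicates 1 to 3, and 20.5, 44.9 and 69.5 TPM in wild type replicates 1 to 3, with overlap. Myosin-binding protein C, which holds heads near the filament backbone, was low in all libraries, with mybpc1, mybpc2a and mybpc2b at or under 12.4 TPM and log2 fold changes in CPM of -0.08, -0.59 and -0.18.

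The giant ruler proteins titin and nebulin span the sarcomere from the Z disc and run along the thick and the thin filament. Their 4 tested entries had a median log2 fold change of 0.17 in CPM and of -0.79 in log2(TPM + 1), so the direction turned with the scale, and none had an unadjusted p under 0.05. Their summed share of all TPM was 0.0115% ± 0.00227 in mutant larvae and 0.0253% ± 0.00918 in wild type larvae (SD, n = 3 each), without overlap, whereas the summed CPM overlapped. Most of this share was of the 2 entries of the nebulin gene neb, with effective lengths of 1629 and 676 bases. They had means of 72.9 and 35.0 TPM in mutant larvae and 138.6 and 99.25 TPM in wild type larvae. The titin genes ttn.1 and ttn.2 had 1.86 and 5.32 TPM in mutant larvae and 2.04 and 12.7 TPM in wild type larvae. TPM divides by length, so the short neb entries weigh more in it than in counts. Mean CPM of ttn.2 was 345 in mutant larvae and 303 in wild type larvae, against 244 and 219 for the more abundant neb entry. A ttn.2 transcript of 1201 bases held 62.3% and 40.3% of its TPM in wild type replicates 2 and 3, and at most 2.61% elsewhere. Nebulin has 2 entries, of which the more abundant (ENSDARG00000032630) had 224, 329 and 179 CPM in mutant replicates 1, 2 and 3, and 109, 340 and 209 CPM in wild type replicates 1, 2 and 3. The groups overlapped, and the log2 fold change in CPM of 0.15 (standard error 0.44, edgeR unadjusted p = 0.729) changed sign under several alternatives. The other neb entry (ENSDARG00000109273) had 68.9, 46.2 and 25.1 CPM in mutant replicates 1, 2 and 3, and 74.2, 112 and 40.8 CPM in wild type replicates 1, 2 and 3. It overlapped in CPM, with a log2 fold change of -0.69 (standard error 0.45, edgeR unadjusted p = 0.153), which was -0.39 when mutant replicate 3 was left out and -0.30 without wild type replicate 2, and turned to 0.37 against wild type replicate 3 alone. With the counts of both entries summed the log2 fold change of neb was -0.019.

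The titin gene ttn.1 (ENSDARG00000000563), whose mean effective length was 71646 bases, had 227, 236 and 176 CPM in mutant replicates 1, 2 and 3, and 53.7, 311 and 149 CPM in wild type replicates 1, 2 and 3. Wild type libraries held both the lowest and the highest value. The log2 fold change in CPM was 0.32 (standard error 0.51, edgeR unadjusted p = 0.550), and it was -0.038 without wild type replicate 1 and 1.07 without wild type replicate 2. Its neighbour ttn.2 had a log2 fold change in CPM of 0.19 (standard error 0.43).

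Calcium handling genes were abundant through the parvalbumins, which bind calcium in the cytosol and speed the relaxation of fast fibres. The 10 tested entries of this role made 3.79%, 4.33% and 3.35% of all TPM in mutant replicates 1 to 3, and 5.21%, 7.34% and 5.62% in wild type replicates 1 to 3, without overlap. In CPM their sum overlapped, at 26836, 36173 and 21964 CPM in mutant larvae and 32971, 48634 and 19438 CPM in wild type larvae. No entry had an unadjusted p under 0.05, and the median log2 fold change in CPM was -0.15.

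The parvalbumin gene pvalb2 (ENSDARG00000002768) had 19025, 23980.4 and 15931 TPM in mutant replicates 1, 2 and 3, and 24970.1, 35463 and 26725 TPM in wild type replicates 1, 2 and 3. In TPM the mutant libraries were all below the wild type ones, but in CPM they overlapped. Its log2 fold change in CPM was -0.19 (standard error 0.48, edgeR unadjusted p = 0.697), and it turned to 0.24 without wild type replicate 2 and to 0.83 against wild type replicate 3 alone.

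Its paralog pvalb1 (ENSDARG00000037789) had 15256, 16454 and 15661 TPM in mutant replicates 1, 2 and 3, and 22592, 33793 and 25839.8 TPM in wild type replicates 1, 2 and 3. These groups were well apart in TPM and overlapped in CPM. The log2 fold change in CPM was -0.39 (standard error 0.46, edgeR unadjusted p = 0.407), turning to 0.065 without wild type replicate 2 and to 0.59 against wild type replicate 3 alone. The remaining parvalbumins, pvalb3 and pvalb4, had log2 fold changes in CPM of -0.27 and -0.11. Against wild type replicate 3 alone, pvalb4, named here after its values were seen, passed with a log2 fold change of 1.37 (edgeR adjusted p = 0.0342, range over all alternatives 0.0342 to 1.00).

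Calsequestrin stores calcium in the sarcoplasmic reticulum, and casq1b (ENSDARG00000018105) had 18.5, 20.6 and 15.2 CPM in mutant replicates 1, 2 and 3, and 16.4, 46.3 and 36.5 CPM in wild type replicates 1, 2 and 3. The groups overlapped through wild type replicate 1, and the log2 fold change in CPM was -0.87 (standard error 0.45, edgeR unadjusted p = 0.0755), which was -0.55 without wild type replicate 2. The casq1a entry tested had a log2 fold change in CPM of 0.39 (standard error 0.53).

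The ryanodine receptor ryr1b (ENSDARG00000023797), the calcium release channel, had 32.7, 38.3 and 21.5 CPM in mutant replicates 1, 2 and 3, and 6.84, 16.2 and 22.1 CPM in wild type replicates 1, 2 and 3. The groups overlapped by a narrow margin, since wild type replicate 3 lay just above the lowest mutant library. Its log2 fold change in CPM was 1.03 (standard error 0.49, edgeR unadjusted p = 0.0547), the highest of the tested entries, and it was 0.65 against wild type replicate 3 alone and 0.25 in log2(TPM + 1). The related channel gene ryr3 had a log2 fold change in CPM of 0.97 (standard error 0.60), with a low value of 9.30 CPM in wild type replicate 1 against 49.5 to 115 CPM in the other 5 libraries. The SERCA pump genes atp2a1 and atp2a1l, which return calcium to the store, had log2 fold changes in CPM of -0.32 and 0.08.

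**Figure D4:**
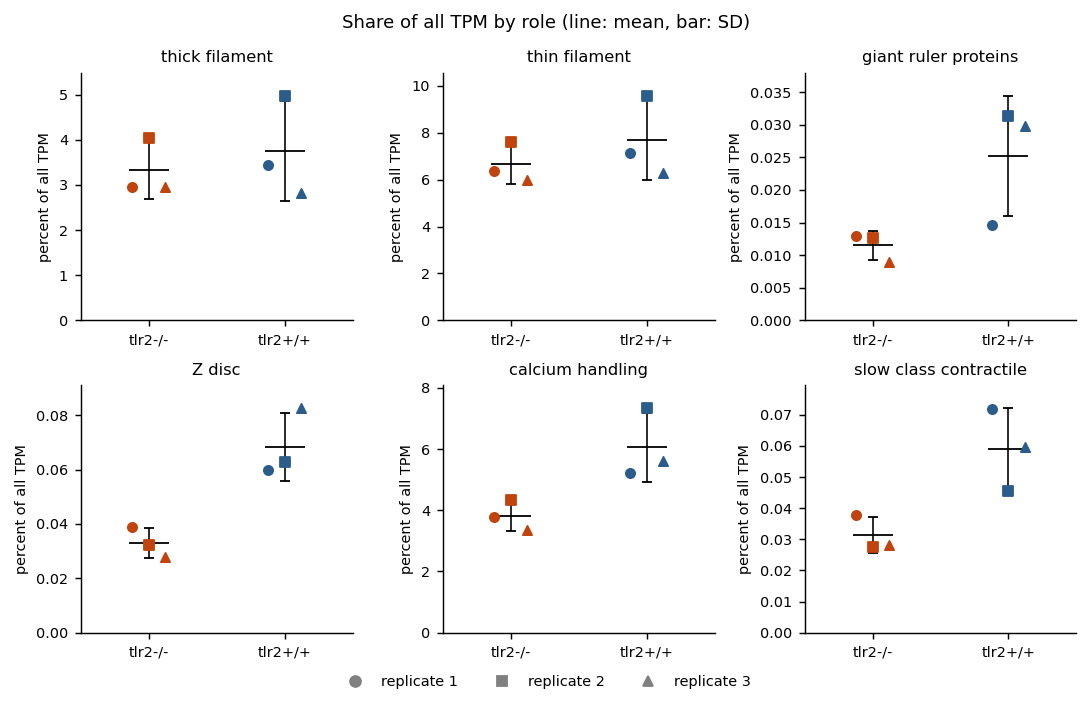
Share of all TPM, in percent from 0, held by the muscle genes of each role and by the slow fibre contractile genes (tlr2-/- left, tlr2+/+ right, 3 replicates each by symbol shape, with the mean as a line and the SD as a bar). Shares of the giant ruler proteins, the Z disc, calcium handling and the slow class are lower in each of the 3 mutant libraries than in any wild type library, and those of the thick and thin filament overlap. Of all genes, 12.9% lay lower in mutant larvae in TPM without overlap and 2.53% higher. In summed CPM the giant ruler proteins, calcium handling and the slow class overlap, whereas the Z disc does not. Most of the giant ruler share is of the nebulin gene neb, whose short entries weigh more in TPM than in CPM.

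Fast and slow fibre genes were compared by their fold changes in CPM between the genotypes and by their ratio within each library, where the scale of the library cancels. Fast members, with 28 tested entries, had a median log2 fold change in CPM of -0.19, with 17 entries below 0 and 11 above. Slow members, with 7 tested entries, had a median of -0.41, with 6 below 0 and 1 above. The log2 ratio of fast to slow contractile TPM was 6.94, 7.89 and 7.39 in mutant replicates 1, 2 and 3, and 6.58, 7.76 and 6.74 in wild type replicates 1, 2 and 3. The mean difference, mutant minus wild type, was 0.38, within the pooled SD of 0.56 between libraries of a genotype. With myosin heavy chains alone the difference was 0.46, without the most abundant fast and slow member it was 0.26, and with the mean log2(TPM + 1) over members it was 0.17. It shrank to 0.13 without mutant replicate 2, 0.15 without wild type replicate 1 and 0.23 without wild type replicate 3, and grew to 0.61 without mutant replicate 1 and 0.74 without wild type replicate 2. Fast members had a median of 0.15 without wild type replicate 2 and 0.56 against wild type replicate 3 alone, whereas slow members kept a median below 0 in both, at -0.31 and -0.22. The slow contractile genes summed to 0.0379%, 0.0276% and 0.0283% of all TPM in mutant replicates 1 to 3, and 0.0718%, 0.0454% and 0.0597% in wild type replicates 1 to 3, and in CPM these sums overlapped. Most of the slow sum was of 1 gene, tpm3. It had 253, 205 and 191 TPM of 379, 276 and 282 TPM in mutant replicates 1 to 3. In wild type replicates 1 to 3 it had 530, 269 and 338 TPM of 718, 454 and 597 TPM.

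Ratios of TPM between abundant members differed between the genotypes in several pairs, but about as often as between all abundant genes. The pairs were taken across all roles, not only between partners of a filament, and all abundant genes include the members. Of 78 pairs among the 13 member entries with a mean of at least 1000 TPM, the ratio did not overlap between the genotypes for 32 (41.0%), against 36.1% of 13041 pairs among all 162 genes at that level. Examples chosen after their values were seen were actc1b over tpma, with ratios of 4.95, 3.18 and 4.71 in mutant replicates 1 to 3 and 1.80, 1.52 and 1.27 in wild type replicates 1 to 3, and mylz3 over both mylpfa entries, with 2.56, 2.57 and 3.07 in mutant larvae and 1.63, 1.68 and 1.64 in wild type larvae. Ratios of tnnt3b over tnnc2 were 3.18, 3.38 and 3.49 in mutant larvae and 4.06, 4.58 and 4.06 in wild type larvae. By contrast, pvalb1 over pvalb2 was 0.802, 0.686 and 0.983 in mutant larvae and 0.905, 0.953 and 0.967 in wild type larvae, and myhz1.1 over myhz1.2 also overlapped.

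Transcript use within a gene was compared for 34 tested entries with several transcripts, over 69 transcripts that held at least 10% of their gene's TPM in some library. The share was lower in every mutant library for 3 of them (4.35%, against 2.55% over all genes) and higher for 2 (2.90%, against 3.56%), all of myhz1.1 and tnnt3b. For myhz1.1, the transcript ENSDART00000123003.3 held 95.9%, 99.5% and 82.6% of the gene's TPM in mutant replicates 1 to 3, and 63.1%, 35.9% and 80.7% in wild type replicates 1 to 3. Its other transcript, ENSDART00000193758.1, held the rest, and mutant replicate 3 and wild type replicate 3 were close to each other in this split. For tnnt3b, which has 15 transcripts, ENSDART00000145457.4 held 9.75%, 10.15% and 7.76% in mutant replicates 1 to 3, and 18.8%, 10.6% and 10.3% in wild type replicates 1 to 3. The assignment of reads between transcripts of a gene rests on the estimates of Salmon, whose error was not analysed here.

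Wild type libraries differed from each other along transcript length, which bears on every comparison between long and short members. Over 49 entries above 0 in all libraries, the deviation of log2 TPM from the entry's mean correlated with the log2 of effective length at r = 0.33, 0.25 and 0.16 in mutant replicates 1, 2 and 3, and at -0.66, -0.17 and 0.44 in wild type replicates 1, 2 and 3. These values describe entries that share a library and are given without a test. The 17 entries of at least 3000 bases, mostly myosin heavy chains, with titins and ryanodine receptors among the rest, had a median deviation of 0.07, -0.03 and -0.39 in mutant replicates 1 to 3, and -0.98, 0.14 and 1.11 in wild type replicates 1 to 3. For the 24 entries under 1500 bases the medians were -0.19, -0.33 and -0.42 in mutant replicates 1 to 3, and 0.18, 0.45 and 0.28 in wild type replicates 1 to 3. Long members were thus low in wild type replicate 1 and high in wild type replicate 3, and the part of length in the differences between the genotypes was not tested. A fit with length offsets called 0 members, as the main fit did. Its offsets follow shifts of a gene's own mean effective length between libraries, so it cannot test a bias between long and short genes.

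**Figure D5:**
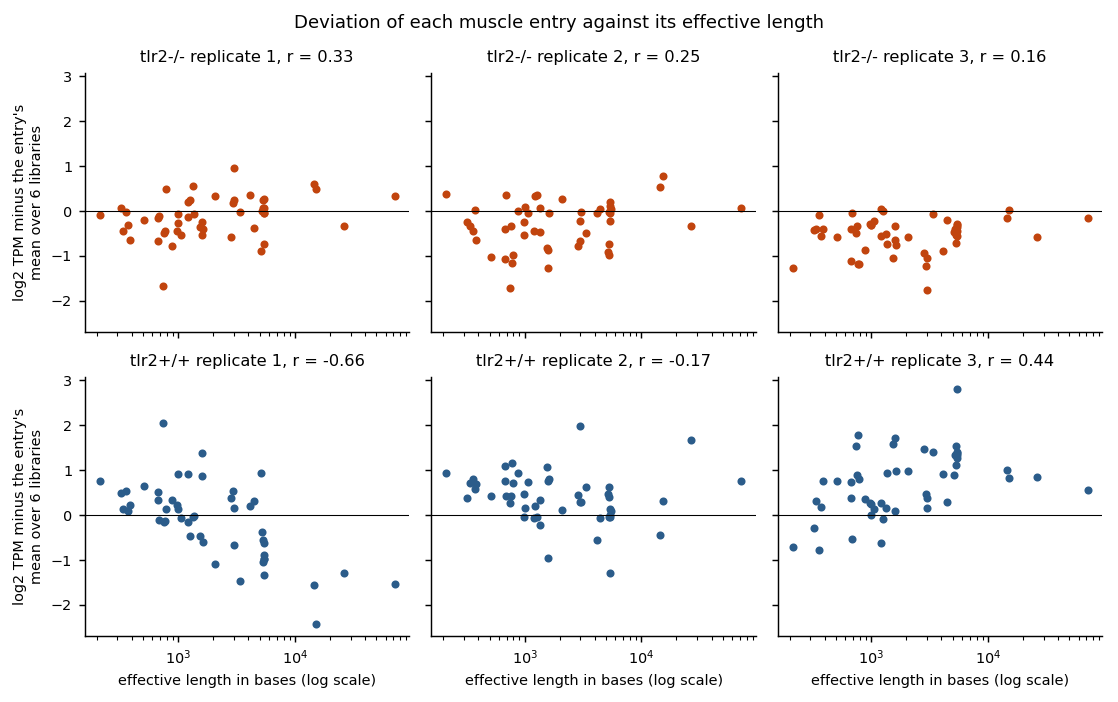
Deviation of the log2 TPM of each of 49 muscle entries from its mean over the 6 libraries (vertical axis) against effective length in bases on a log scale (horizontal axis), with 1 panel per library, tlr2-/- above and tlr2+/+ below. The cloud falls with length in wild type replicate 1 (r = -0.66) and climbs in wild type replicate 3 (r = 0.44). In wild type replicate 2 r is -0.17, and in the mutant libraries it is 0.16 to 0.33.

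Other genes of the sarcomere and of excitation-contraction coupling, from a list of 89 symbols that are not members, had 74 tested entries. Their median log2 fold change in CPM was -0.14, with 3 entries lower (4.05%, against 1.99% of all genes) and 1 higher (1.35%, against 1.73%) in mutant larvae at an unadjusted p under 0.05, and 0 passed edgeR's adjusted threshold. The smallest p belonged to myom1a, which encodes a myomesin that links thick filaments at the M line, with 54.5, 65.6 and 31.0 CPM in mutant replicates 1 to 3 and 20.4, 21.9 and 26.8 CPM in wild type replicates 1 to 3 (log2 fold change 1.13, edgeR unadjusted p = 0.0130). In TPM its groups overlapped and the direction of the means turned, with 12.7, 19.7 and 6.11 TPM in mutant replicates 1 to 3 and 21.5, 7.14 and 17.1 TPM in wild type replicates 1 to 3. Next came tnni2b.2, a gene of fast troponin I, the inhibitory subunit of troponin, with a log2 fold change in CPM of -0.93 (edgeR unadjusted p = 0.0336). This gene had 126.9, 134.3 and 97.2 CPM in mutant replicates 1 to 3 and 203.6, 341.9 and 138.1 CPM in wild type replicates 1 to 3. An entry of myoz1a, the other myozenin 1 gene, had 8.82, 9.06 and 4.39 CPM in mutant replicates 1 to 3 and 27.6, 17.6 and 9.65 CPM in wild type replicates 1 to 3 (log2 fold change -1.30, edgeR unadjusted p = 0.0427). The other myoz1a entry (ENSDARG00000056209) overlapped between the genotypes (log2 fold change in CPM -0.749, edgeR unadjusted p = 0.284). It had 5.88, 6.96 and 5.37 CPM in mutant replicates 1 to 3 and 4.835, 13.85 and 11.94 CPM in wild type replicates 1 to 3. Of 18 tested entries of genes that regulate muscle formation, 0 had an unadjusted p under 0.05, and their median log2 fold change in CPM was -0.15.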

How the data were processed

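For each library the authors deposited the estimated counts, TPM and effective lengths of 57192 transcripts, as quantified by Salmon (v1.2.1; genome build GRCz11 per the submitters' processing notes). The authors also deposited a table of genes, from DESeq2 v1.24.0 and apeglm, of which the mean signal (counts divided by normalization factors) and the symbols were used; its log2 fold changes and s-values were not used.

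Transcripts were joined to the gene whose deposited mean they give with a relative difference under 1e-12, over runs of at most 40 neighbouring rows. Of 23956 genes whose mean was above 0, 21079 were joined, with 99.9% or more of every library's reads, and 4 ambiguous matches were left out.

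Estimated counts were summed per gene, rounded and tested in edgeR 4.0.16 (default expression filter, TMM factors, robust quasi-likelihood fit, genotype as the only factor) with Benjamini-Hochberg adjustment over all genes at 0.05. A standard error is the size of the log2 fold change divided by the square root of F. The p-values measure the spread between 3 libraries per genotype. Alternative fits used limma 3.58.1 and DESeq2 1.42.0 in R 4.3.3. Tables were made with pandas 2.3.3 and numpy 2.4.6, and figures with matplotlib 3.10.9, in Python 3.11.15. The fits were tested on simulated data (seed 7).

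The members and lists were chosen with earlier results of these data known. Values in every library are given for the 2 entries of highest mean TPM and the 2 of smallest p in each role, for entries with an unadjusted p under 0.05, for tcap, myoz1b and actn3a, and for the 3 of smallest p among other sarcomere genes; others named with library values were chosen after these were seen. Fibre classes follow general knowledge of the genes. Results were recomputed with each library left out, with the replicate number as a block, with entries of a symbol summed, with RLE scaling, without the filter, with a filter at a mean CPM of 1, with DESeq2's Wald test, with limma-trend on log2(TPM + 1) and log2(TPM + 0.1), with length offsets and, added after the data were seen, against wild type replicate 3 alone.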

Additional observations from a re-analysis of the deposited data

How the results depend on the processing

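Named members kept their direction, and stayed short of the threshold, in 282 of 304 values under alternatives, and 11 of the 19 named entries reversed under none of them. Entries were named partly for a small p, and every alternative refits these same libraries or some of them. Such agreement is therefore not independent evidence. Another 4 values passed the threshold, all against wild type replicate 3 alone, for mylz3, actc1b, acta1b and myoz1b. Reversed values numbered 18. Against wild type replicate 3 alone, the log2 fold change became 0.68 for desma, 0.83 for pvalb2 (ENSDARG00000002768), 0.59 for pvalb1, 0.37 for neb (ENSDARG00000109273), 0.87 for mylpfa (ENSDARG00000053254) and 0.98 for tpma. For neb (ENSDARG00000032630) it became -0.019 with entries of a symbol summed, -0.80 in limma-trend on log2(TPM + 1), -0.80 in limma-trend on log2(TPM + 0.1) and -0.41 with length offsets. With each library left out in turn, the log2 fold change ranged from -0.51 to 0.24 for pvalb2, -0.66 to 0.065 for pvalb1, -0.12 to 0.61 for neb (ENSDARG00000032630), -0.038 to 1.07 for ttn.1, -0.46 to 0.36 for mylpfa and -0.79 to 0.076 for tpma.

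The number of all genes called, 1 in the comparison as reported, was 3 with no filter, 0 with a mean CPM of at least 1, with summed entries, with limma-trend on log2(TPM + 0.1) and with length offsets, 38 in DESeq2's Wald test, 7 in limma-trend on log2(TPM + 1), 758 against wild type replicate 3 alone, and 0 to 5 with each library left out. Members called were 1 in limma-trend on log2(TPM + 1) and 6 against wild type replicate 3 alone (11.8%, against 3.73% of all genes), and 0 under every other alternative run. Members lower at an unadjusted p under 0.05, as a count added after the data were seen, were 19 in each limma-trend fit (37.3% of members, against 7.04% and 7.08% of all genes, where 1.99% of all genes were lower in the comparison as reported) and 2 to 11 with each library left out. The median of fast members ranged from -0.42 to 0.15 with each library left out, was -0.54 in limma-trend on log2(TPM + 0.1) and turned to 0.56 against wild type replicate 3 alone, and that of slow members was -0.87 in limma-trend on log2(TPM + 0.1). The difference in the share of members (mutant minus wild type) was -3.73 percentage points of all TPM and -0.66 of estimated counts, -5.09 to -1.52 with each library left out, where the value nearest 0 was without wild type replicate 2, and -1.01 against wild type replicate 3 alone. The cause of these changes was not tested.

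With the replicate number as a block, 64 genes and 0 members were called. Same-numbered libraries of the genotypes had deviations that correlated at 0.00184, 0.0438 and 0.0566 across genes, all under 0.1. Libraries with different numbers correlated at -0.113 to 0.0737. No pairing by number was therefore seen, but with 3 libraries per genotype these values cannot exclude a shared batch.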
